A study of Mus musculus with 2 samples.

Results

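The genes described here encode the proteasome, its immunoproteasome subunits and its activators, together with the factors that assemble or inhibit it. They are the genes whose symbol begins with Psma, Psmb, Psmc, Psmd, Psme, Psmf or Psmg and that are read by at least 1 probe set assigned to that gene alone. This gave 49 genes of 18193 on the array, read by 103 of its 34945 single-gene probe sets. The inducible genes Psmb8, Psmb9, Psmb10 and Psme1 are described apart from the 45 others, which are called the standard members below. Psme2 is not analysed here, because its probe set is shared with the related gene Psme2b. Psmc3ip and Psme3ip1 carry the prefix but encode a recombination factor and a protein that binds PSME3, and they are no proteasome subunits.

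The samples were macrophages of C57BL6 mice, grown from bone marrow in medium with serum and the growth factor M-CSF. The control group was left without lipopolysaccharide (LPS), the bacterial outer-membrane component sensed by Toll-like receptor 4, and the LPS group received it, with no dose or time given in the labels. Each group is 1 Mouse Genome 430 2.0 array, so there is no replicate and no test, the number of arrays limits the precision, and every difference describes these 2 arrays only. The labels do not say whether the cells came from 1 animal or were pooled. All 8 macrophage markers examined, among them Csf1r and Adgre1, were above the floor, defined below, on both arrays. Neutrophil markers above it numbered 2 of 6 on the control array and 3 of 6 on the LPS array, with summed signals of 407 and 681 over the list, led by S100a8 with 270 and 440. Of the 6 dendritic cell markers, 0 and 2 were above it, the 2 being Zbtb46 (50.1) and Ccr7 (60.5). Among 4 T cell markers Cd8a (70.3 and 44.3), and among 4 stromal markers Col1a2 (36.8 and 41.9), were above it on both arrays. Of 2 erythroid markers, Klf1 was above it on the LPS array only (40.0). Of 3 B cell markers, 0 were above it on either array. Whether such cells contribute to any difference below was not tested.

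The proteasome is the protease that degrades most ubiquitin-tagged proteins of the cytosol and nucleus. Its 20S core is a barrel of outer rings of alpha subunits and inner rings of beta subunits, of which PSMB5, PSMB6 and PSMB7 carry the proteolytic sites. The 19S cap unfolds substrates with a ring of ATPases and recognises and removes ubiquitin with non-ATPase subunits. In cells exposed to interferons or inflammatory signals, and constitutively in many immune cells, PSMB8, PSMB9 and PSMB10 replace PSMB5, PSMB6 and PSMB7 in newly built cores. The resulting immunoproteasome favours peptides that suit MHC class I molecules. PSME1 and PSME2 form PA28 alpha/beta, an activator ring that caps the core in place of 19S.

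Values are MAS5 signals, and ratios are the log2 signal on the LPS array minus that on the control array, from the probe set of each gene with the highest mean log2 signal. The floor is the median signal of an array, 35.1 for the control and 26.7 for the LPS array, and a gene counted as measured when this probe set reached it on either array. Of the 49 genes, 47 were measured, and all 47 were above the floor on both arrays. The exceptions were Psma8, an alpha subunit of the testis, with signals of 30.3 and 1.73, and Psmb11, the beta subunit of thymic epithelium, with 16.8 and 15.9. Over all 11722 measured genes the median log2 ratio was -0.42, so a proteasome gene with equal signals on both arrays stood above the median gene. That shift varied with brightness. The median was -0.47 for the 4599 genes with a mean log2 signal under 7 and -0.61 for the 3898 from 7 to 9. It was -0.32 for the 1445 from 9 to 10 and -0.06 for the 994 from 10 to 11, where 14 standard members lie. In these bulk samples, a difference in the share of a cell type and one in the RNA per cell cannot be told apart.

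**Figure D1:**
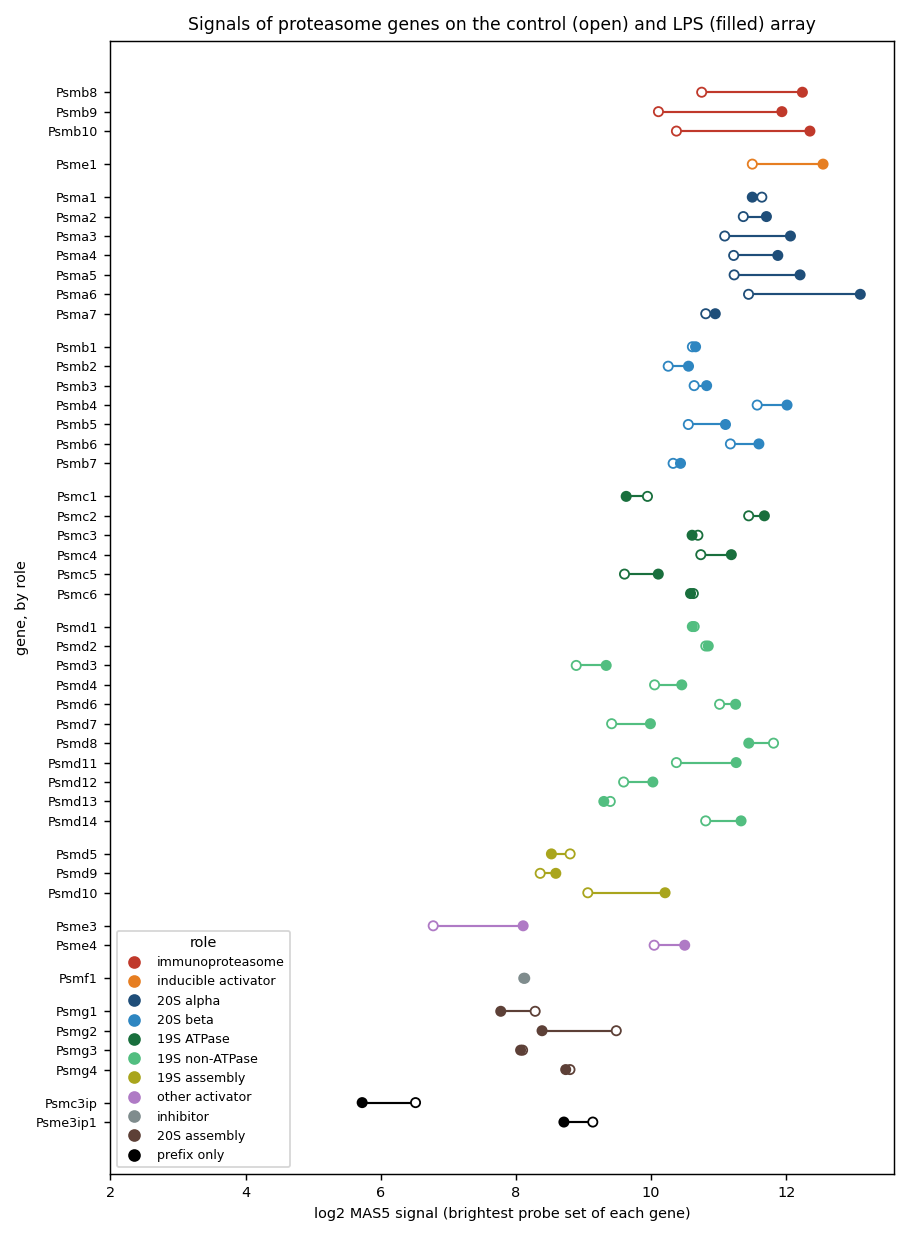
MAS5 signals on a log2 axis for the 47 measured genes, 1 row per gene in order of role, with the control array as an open and the LPS array as a filled circle joined by a line (1 array each, no error bars). Psmb8, Psmb9, Psmb10 and Psma6 have the longest lines towards higher LPS signals, and Psmg2 has the longest line towards a lower one.

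The immunoproteasome subunit genes and Psma6 had the highest ratios of the proteasome genes as deposited, while Psme3 stood above Psmb9, Psma6 and Psmb8 after quantile normalization and after loess. All 3, and the activator gene Psme1, differed by 2-fold or more towards the LPS array, a size that 8.22% of all measured genes reached. The median log2 ratio of these 4 genes was 1.66, against -0.42 over all genes.

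Psmb10, which encodes the inducible trypsin-like subunit beta 2i, had signals of 1328 without LPS and 5221 with it, 3.93-fold higher. Psmb9, for the subunit beta 1i, had signals of 1104 and 3916, 3.55-fold higher. Psmb8, for the chymotrypsin-like subunit beta 5i, had signals of 1721 and 4833, 2.81-fold higher. The other probe set of Psmb8, with signals of 114 and 281, had a log2 ratio of 1.31 beside 1.49 for the brighter one. Control signals of these 3 genes were far above the floor, so the genes were read well on the untreated array too. Psme1, the PA28 alpha gene, had signals of 2892 and 5974, 2.07-fold higher, and is the inducible gene nearest to the 2-fold size. Its log2 ratio was 0.85 after quantile normalization, under that size, while Psmb8, Psmb9 and Psmb10 passed it under every one of the 6 scalings tried.

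The standard counterparts of the replaced sites lay within 2-fold. Psmb5, the chymotrypsin-like subunit gene replaced by Psmb8, had signals of 1500 and 2196, 1.46-fold higher. Psmb6, replaced by Psmb9, had signals of 2310 and 3094, 1.34-fold higher. Psmb7, replaced by Psmb10, had signals of 1284 and 1385, 1.08-fold higher. Each standard gene was thus also at the higher signal on the LPS array, but by less than its inducible partner. The difference of the log2 ratios within a pair does not move with a scaling common to an array. It was 0.94 for Psmb8 minus Psmb5, 1.40 for Psmb9 minus Psmb6 and 1.87 for Psmb10 minus Psmb7, so that the inducible gene's ratio was 1.92, 2.65 and 3.64 times that of its partner. Across the alternatives that could be computed, these factors ranged from 1.80 to 1.92, from 2.63 to 2.80 and from 3.41 to 3.64.

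The stretches just upstream of Psmb8 and Psmb9 and of their partners Psmb5 and Psmb6 are shown, picked because each holds 1 of the motifs searched. Sequences are from RefSeq, 250 bases ending just before the annotated start of the gene, 5′ to 3′ on the strand of the gene. Capitals mark matches, on either strand, to the gamma-activated site TTCNNNGAA, the interferon-stimulated response element GAAANNGAA, the antioxidant response element TGACNNNGC bound by NRF factors, and the CCAAT box. No 2 matches to different motifs overlapped in any promoter of these genes.
Psmb8, GRCm38.p6, chr17:34197945-34198194, plus strand: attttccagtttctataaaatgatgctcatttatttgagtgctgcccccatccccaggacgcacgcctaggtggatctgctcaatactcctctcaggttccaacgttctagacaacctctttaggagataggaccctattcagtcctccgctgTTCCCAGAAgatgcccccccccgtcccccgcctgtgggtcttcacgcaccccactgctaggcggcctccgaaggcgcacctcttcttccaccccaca
Psmb9, GRCm38.p6, chr17:34187331-34187580, minus strand: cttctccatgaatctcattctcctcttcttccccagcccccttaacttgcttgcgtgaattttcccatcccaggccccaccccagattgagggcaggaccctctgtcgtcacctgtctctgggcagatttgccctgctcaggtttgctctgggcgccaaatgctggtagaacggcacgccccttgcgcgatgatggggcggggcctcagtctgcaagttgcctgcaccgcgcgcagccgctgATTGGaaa
Psmb5, GRCm38.p6, chr14:54617996-54618245, minus strand: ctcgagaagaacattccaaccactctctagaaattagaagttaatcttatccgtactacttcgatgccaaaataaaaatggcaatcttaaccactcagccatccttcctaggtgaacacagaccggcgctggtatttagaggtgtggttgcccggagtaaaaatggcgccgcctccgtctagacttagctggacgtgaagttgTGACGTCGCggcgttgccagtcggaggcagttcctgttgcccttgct
Psmb6, GRCm38.p6, chr11:70525107-70525356, plus strand: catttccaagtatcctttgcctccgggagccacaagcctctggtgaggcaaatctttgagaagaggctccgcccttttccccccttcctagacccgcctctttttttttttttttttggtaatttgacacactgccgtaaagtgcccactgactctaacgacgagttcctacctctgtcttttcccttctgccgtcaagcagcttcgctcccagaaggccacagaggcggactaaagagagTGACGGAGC

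The Psmb8 stretch holds a gamma-activated site match that starts 97 bases before the annotated start, and the Psmb9 stretch holds a CCAAT box 8 bases before it. The Psmb10 and Psme1 stretches hold none of the 4 motifs and are not shown, although Psmb10 minus Psmb7 was the largest pair difference, 1.87. The Psmb5 and Psmb6 stretches each hold an antioxidant response element match, 47 and 9 bases before the start. Psmb7 has no entry in the promoter table. These letters are frequent: of 27025 genes with such a stretch, 8.13% hold, in any of theirs, the gamma-activated site, 8.18% the interferon-stimulated response element, 11.5% the antioxidant response element and 37.5% the CCAAT box. Among 35 standard proteasome genes with an entry, 1, 3, 5 and 13 hold them, and among the inducible genes, here with Psme2, 1, 0, 0 and 1 of 5. The matches describe these windows only and were not tested for binding.

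**Figure D2:**
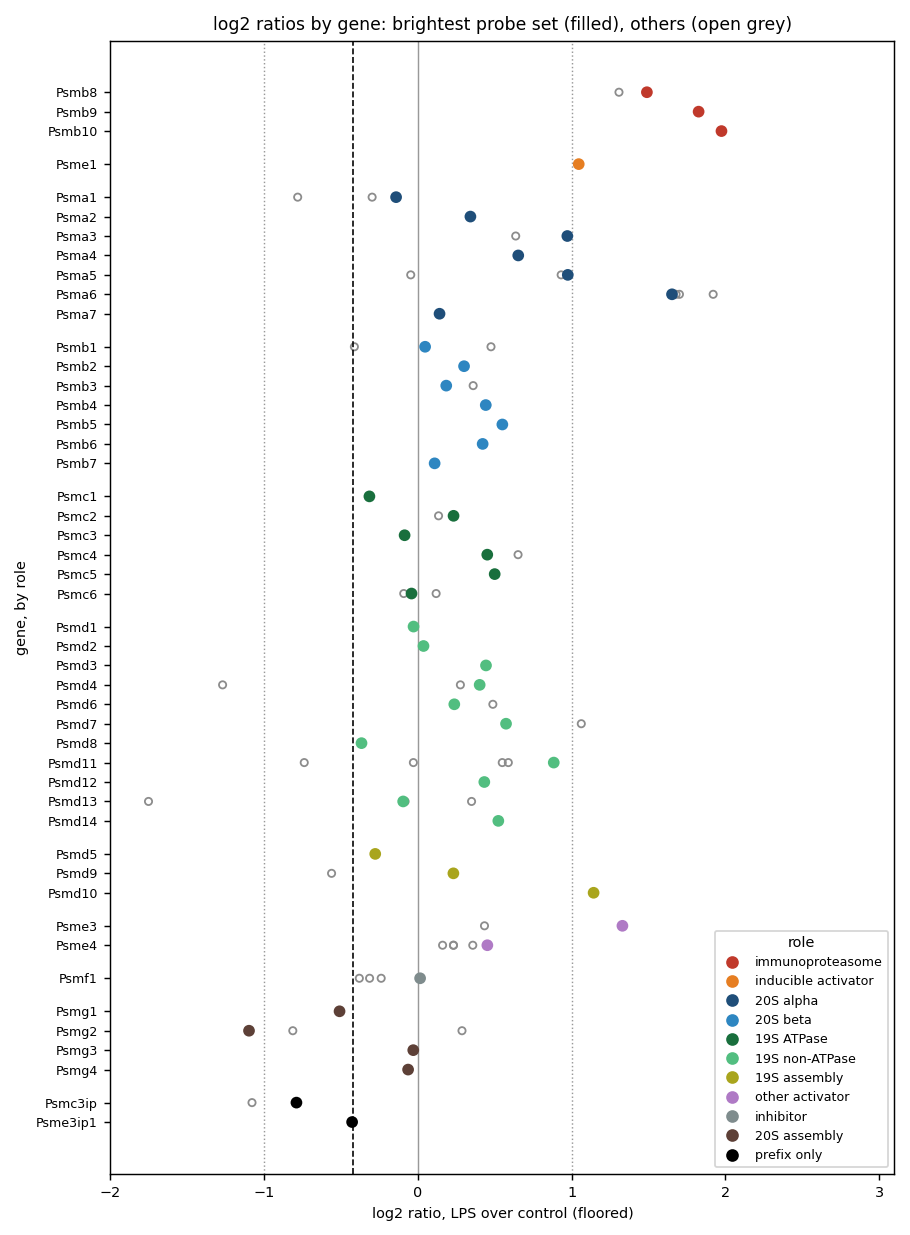
log2 ratio of LPS over control for each of the 47 measured genes in order of role, with the brightest probe set as a filled point and the gene's other measured probe sets as open grey circles. Dotted lines mark 2-fold, the solid line equal signals and the dashed line the median of all measured genes at -0.42. The 4 inducible genes lie to the right of the upper 2-fold line, as do Psma6, Psmd10 and Psme3, and most of the other genes lie between equal signals and that line.

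The standard members stood slightly higher on the LPS array as a group, with few large differences. Their median log2 ratio was 0.23 over 43 measured genes. Of these, 29 had the higher signal on the LPS array, whereas 28.9% of all measured genes had a log2 ratio above 0. Signals under a floor were set to it for this ratio, and the floors differ. A gene under the control floor can therefore count as lower at a higher LPS signal, as Ltf did (10.0 and 31.6, -0.15). Of the 11722 genes, 9822 were above both floors, as were all 47 measured proteasome genes, so this background is not fully alike. In size, 3 of the 43 standard members were at least 2-fold higher, close to the background of 8.22%, and 1 was at least 2-fold lower, against 26.2% of all genes. The brightness of these genes moves with this comparison: among genes with a mean log2 signal of 10 or more, a bound chosen after the values were seen, 45.1% of 1780 had the higher signal on the LPS array, with a median of -0.08. In the same range 21 of 26 standard members had it, with a median of 0.32, and 1 was at least 2-fold higher, whereas 15.6% of all genes in that range were. The direction of 13 standard members depended on how the arrays were scaled. Under every one of the 6 scalings 27 of the 43 were higher on the LPS array and 3 lower, namely Psmg2, Psmc3ip and Psme3ip1. Over all genes, 28.0% had a floored ratio above 0 under all 6.

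**Figure D3:**
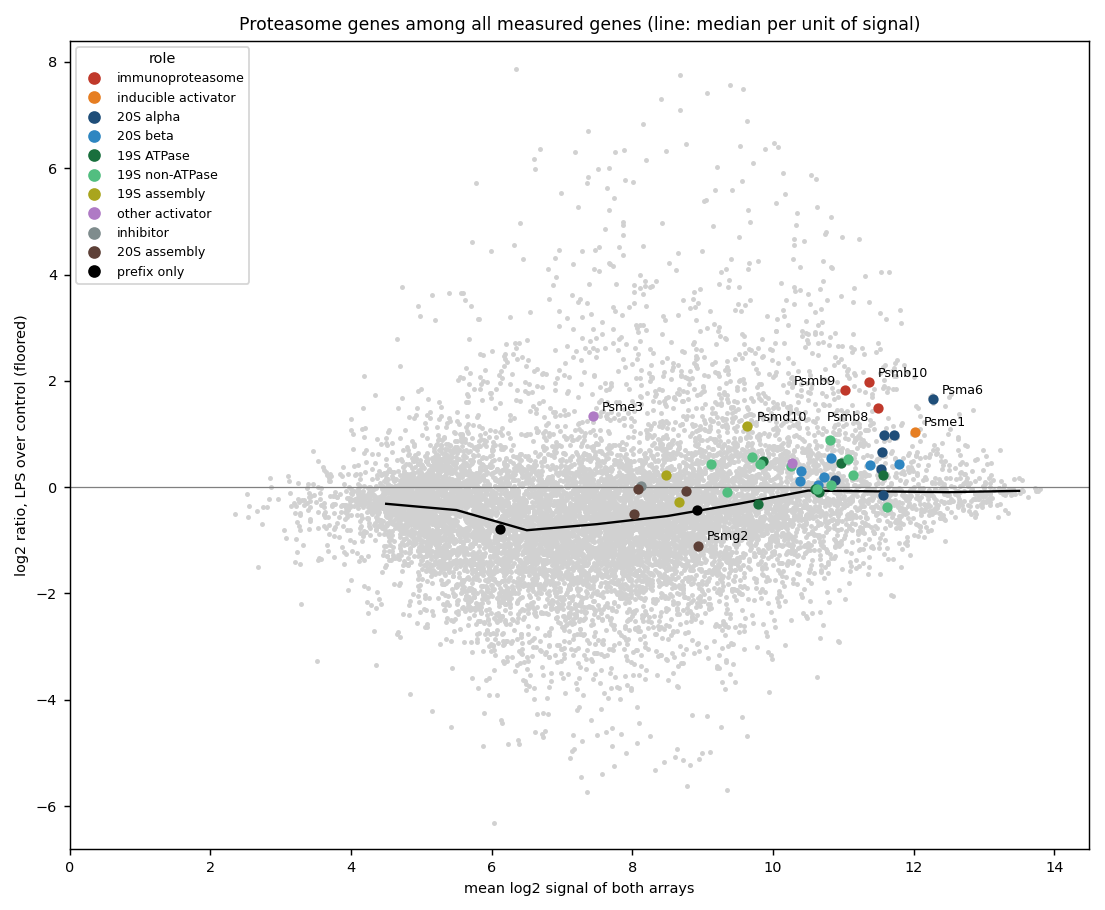
log2 ratio of LPS over control against mean log2 signal for all 11722 measured genes (grey) and the 47 measured proteasome genes (coloured by role), with the black line joining the medians of genes in steps of 1 on the log2 signal axis. Most proteasome genes lie at mean log2 signals above 9 and above the median line, and named points are those past 2-fold.

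Alpha subunits of the 20S core, which form the gated outer rings, held the widest spread of any structural group and the highest median of them, 0.65 over 7 genes. Psma6 stood out among them. Its brightest probe set had signals of 2782 and 8752, 3.15-fold higher. The next had 2325 and 7561, and a dimmer one 142 and 453. The fourth was under the floor on the control array at 19.3 and had 133 on the LPS array, at least 1.92 on the log2 scale. The 3 probe sets read on both arrays thus gave close values, from 1.65 to 1.70, and Psma6 ranked at place 579 of 11722 genes from the highest ratio down.

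Psma3 and Psma5 followed, both just under 2-fold. Psma3 had signals of 2179 and 4276, 1.96-fold higher, and Psma5 had 2400 and 4719, 1.97-fold higher. Scaled in other ways, Psma3 passed 2-fold in 4 of 5 alternatives and Psma5 in 3. The brighter other probe set of Psma5 had a log2 ratio of 0.93, and its dim one was under the floor on the control array and gave 34.0 on the LPS array, which sets no direction. Psma4 was 1.57-fold higher, with signals of 2388 and 3756. Psma2 (1.27-fold) and Psma7 (1.10-fold) were closer to equal. Psma1 alone had the lower signal on the LPS array, 3189 and 2891 with a log2 ratio of -0.14, which turned positive under some scalings.

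Beta subunits of the standard core differed less among themselves. All 7 measured had the higher signal on the LPS array, 6 or 7 of them under the other scalings, and none reached 2-fold, with a median of 0.30. Psmb5 had the highest ratio of the group, at 0.55. Psmb1 had the lowest, with signals of 1564 and 1616, and its 2 dim probe sets differed in direction, at -0.41 and 0.48. Psmb4, the subunit gene that completes the last assembly step of the ring, was 1.36-fold higher, with signals of 3040 and 4129. Psmb2 and Psmb3 were 1.23-fold and 1.14-fold higher. Of the 14 measured genes of the standard core, alpha and beta together, 13 had the higher signal on the LPS array. A floored ratio above 0 was held by 28.9% of all genes and 45.1% of the bright genes above. Under the other scalings 12 to 14 of the core genes were higher, and 30.9% to 50% of all genes had such a ratio.

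The 19S ATPases, the motor ring that unfolds substrates, were divided as deposited. Of 6 genes, 3 had the higher and 3 the lower signal on the LPS array, while 28.9% of all genes had a floored ratio above 0. All 6 lay above the median of all genes, -0.42. Under the other scalings 3 to 6 of them were higher, where 30.9% to 50% of all genes had such a ratio. The median of the 6 genes, 0.10 as deposited, ranged from -0.03 to 0.52 there. Psmc5 had the highest ratio, with signals of 780 and 1102, 1.41-fold higher, and Psmc4 was 1.37-fold higher. Psmc1 had the lowest, with signals of 987 and 793, 1.24-fold lower. For Psmc1, Psmc3 and Psmc6 the sign changed with the scaling, and the 3 probe sets of Psmc6 also differed in sign, at -0.04 (1579 and 1535), 0.12 (541 and 587) and -0.09 (124 and 116). No ATPase gene reached 2-fold.

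Non-ATPase subunits of the cap bind and cleave ubiquitin and hold the lid together. Their genes had a median of 0.40 over 11 genes, and 8 of them had the higher signal on the LPS array. A floored ratio above 0 was held by 28.9% of all genes. Under the other scalings 8 to 11 of the group were higher, with medians from 0.38 to 0.82. There, 30.9% to 50% of all genes had such a ratio. Psmd11, a lid subunit gene, had the highest ratio, with signals of 1328 and 2450, 1.85-fold higher. Its other probe sets disagreed: 2 were at 0.55 and 0.59 and another, with signals of 698 and 684, at -0.03, while a dim one that was under the floor on the LPS array was at -0.74 or lower. Psmd7 was 1.49-fold higher, with signals of 683 and 1017. Psmd14, which encodes the deubiquitinase of the lid, had signals of 1792 and 2577, 1.44-fold higher.

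At the other end of this group, Psmd8 had signals of 3595 and 2788, 1.29-fold lower, a direction that reversed after median centring. Psmd1 and Psmd2, the largest scaffold subunits of the base, differed little, with log2 ratios of -0.03 and 0.04. Psmd4, the ubiquitin receptor gene, was 1.32-fold higher by its brightest probe set, whereas a dim probe set with signals of 64.3 and 10.3, the latter under the floor, was at -1.27 or lower. Psmd13 also had dim probe sets that differed in sign, each under the floor on 1 array, at -1.75 or lower and at 0.35 or higher, while its pair of brighter ones lay at -0.10 and -0.08. No gene of the group reached 2-fold in the brightest probe set.

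The factors that help to build the 19S cap were not alike. Psmd10, which encodes gankyrin, a chaperone of the ATPase ring, had signals of 535 and 1182, 2.21-fold higher, and passed 2-fold under all 6 scalings. It is read by 1 probe set. Psmd9, another such chaperone, had signals of 328 and 385 in the brightest probe set (0.23) and 56.4 and 38.2 in a dim one (-0.56). Psmd5, with signals of 446 and 368, had a log2 ratio of -0.28 that changed sign with the scaling.

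Of the 4 chaperone genes that assemble the 20S core, 0 had the higher signal on the LPS array as deposited. There, 28.9% of all genes had a floored ratio above 0. Under the other scalings 1 to 3 of the 4 chaperone genes were higher. Their median log2 ratio was -0.29, and it ranged from -0.24 to 0.20 under the other scalings. Over the 3898 genes with a mean log2 signal from 7 to 9, a range that holds these 4, the median was -0.61. Psmg2, which pairs with PSMG1 to guide formation of the alpha ring, had signals of 717 and 335, 2.14-fold lower, the lowest ratio of all 47 genes. Its next probe set had signals of 420 and 239, and a dim one, with 35.9 and 43.8, went the other way at 0.29. Psmg2 stayed at least 2-fold lower under 1 of 5 other scalings, that to the hybridization controls, with log2 ratios from -1.05 to -0.68 among the 5. Psmg1 was 1.42-fold lower, with signals of 312 and 219. Psmg3 and Psmg4, with log2 ratios of -0.03 and -0.06, had nearly equal signals, and the sign of Psmg1, Psmg3 and Psmg4 changed with the scaling. Pomp, which encodes the maturation factor of the core and is named without the prefix, had signals of 2728 and 3066, 1.12-fold higher.

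Among the remaining activators, Psme3 encodes PA28 gamma, the nuclear activator, and Psme4 encodes PA200. Psme3 had signals of 110 and 276, 2.52-fold higher, from the dimmest probe set among the genes past 2-fold. Its other measured probe set, with 79.5 and 107, was at 0.43, so the size differed between them. Psme4 had signals of 1057 and 1446, 1.37-fold higher, and all 5 of its measured probe sets were higher on the LPS array, from 0.16 to 0.45. Psmf1, which encodes the inhibitor PI31, had signals of 277 and 280 in the brightest probe set, and the 2 others above the floor on both arrays had log2 ratios of -0.38 and -0.24. The prefix-only genes had lower signals on the LPS array: Psmc3ip went from 91.5 to 52.9 and Psme3ip1 from 563 to 419. The signs were the same under all 6 scalings, but Psme3ip1 was nearly equal after median centring (-0.005) and loess (-0.04).

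**Figure D4:**
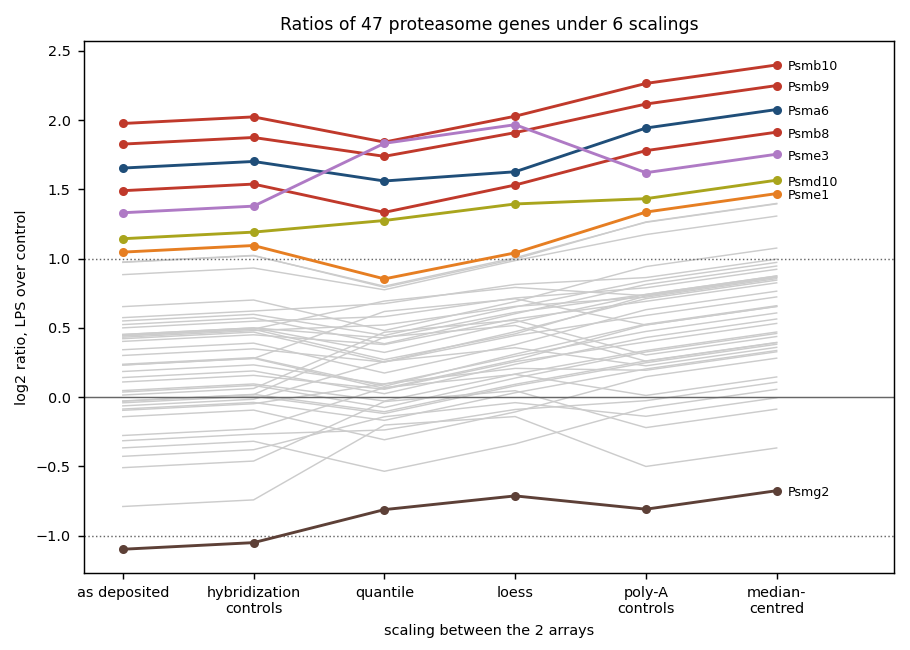
log2 ratio of LPS over control (vertical axis) of the 47 measured genes as deposited and under 5 other scalings between the 2 arrays (horizontal axis), with genes past 2-fold as deposited in colour and the others in grey. Psmb8, Psmb9, Psmb10, Psma6, Psme3 and Psmd10 stay above the upper dotted 2-fold line throughout, Psme1 lies under it after quantile normalization, and Psmg2 lies between the lower line and equal signals in 4 of the 5 other scalings.

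The numbers past 2-fold moved with the scaling. The standard members at least 2-fold higher numbered 3 as deposited, 3 after quantile normalization, 4 after loess, 5 when scaled to the hybridization controls, 6 when scaled to the poly-A controls and 7 after median centring. As deposited, the 3 of 43 were Psma6, Psme3 and Psmd10. Over all measured genes, those at least 2-fold higher numbered 964 of 11722 as deposited, or 8.22%. Under the other scalings, in the same order, they numbered 1367, 1531, 1013, 1290 and 1537, so this background rose too. Of all genes past 2-fold in either direction, 23.9% were higher on the LPS array as deposited. That share was from 25.7% to 49.1% under the other scalings.

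Other genes of the pathway were read from lists of proteins that act with the proteasome. Of 10 measured genes for associated proteins without the prefix, 2 differed by 2-fold or more towards the LPS array and 0 towards the control, against 8.22% and 26.2% of all measured genes, with a median log2 ratio of 0.07. Zfand5, which encodes a ubiquitin-binding proteasome stimulator, was 2.46-fold higher, with signals of 2023 and 4971. Ublcp1, a phosphatase gene of the nuclear proteasome, was 2.29-fold higher, with signals of 98.8 and 226. The deubiquitinase genes Uchl5 (843 and 474) and Usp14 (984 and 559) had the lowest log2 ratios, -0.83 and -0.82.

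NFE2L1 is the transcription factor that raises proteasome gene expression when proteasome activity is short. The list of its route held 6 measured genes, among them Nfe2l1 itself and Nfe2l2, the gene of another transcription factor. Their median was 0.01, with 0 at least 2-fold higher and 1 lower, against the same shares of 8.22% and 26.2%. Ngly1, the deglycosylase gene of this route, had signals of 727 and 236, 3.08-fold lower. Syvn1 (0.71) and Nfe2l1 itself, with signals of 526 and 553 (0.07), had the highest ratios, and Nfe2l2 was at -0.47. Of 4 measured genes for shuttles that carry ubiquitinated proteins, 1 was lower by 2-fold or more: Ubqln2, 2.70-fold. This share lies at the background of 26.2%, and the median of the list was -0.29. Ubqln4 was next at -0.55, and Rad23b (0.18) and Ubqln1 (-0.03) were highest, each with another probe set of the opposite sign. Uba6, the activating enzyme gene, was the 1 measured gene of the ubiquitin list and had a log2 ratio of 0.74, with its probe sets above the floor on both arrays down to -0.12.

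Peptidases trim what the proteasome releases. Of 5 measured, with a median of 0.52, 1 was higher by 2-fold or more, against 8.22% of all genes: Lap3, which encodes leucine aminopeptidase, 3.14-fold, with signals of 369 and 1159, and Npepps was at 0.57. Thop1, with signals of 95.5 and 52.2 (-0.87), and Tpp2 (-0.16) had the lowest log2 ratios. In the list of MHC class I presentation, the median was 0.17, and 4 of 11 genes were higher by 2-fold or more, with 0 lower by that size, against 8.22% and 26.2% of all genes. The transactivator gene Nlrc5 was highest, with signals of 355 and 3176 and a log2 ratio of 3.16, and the peptide transporter gene Tap1 had signals of 649 and 4311, a ratio of 2.73. The chaperone genes Canx (-0.34) and Pdia3 (-0.25) were lowest.

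The interferon signalling list contained 10 measured genes, with a median of 0.80, of which 3 were higher and 1 lower by 2-fold or more, against 8.22% and 26.2% of all genes. Those higher by that size numbered from 3 to 6 under the other scalings, where 1013 to 1537 of all measured genes were, against 964 as deposited. Stat2 was 4.82-fold higher, with signals of 296 and 1424, and Irf1, which encodes a transcription factor of interferon responses, had signals of 772 and 2949, 3.82-fold higher. Ifngr1, a receptor chain gene for interferon gamma, was 3.34-fold lower, with signals of 1810 and 541. Irf9 was the next lowest of those above the floor on both arrays, with signals of 788 and 879 (0.16). Ifnb1 had a control signal of 29.1, under the floor, and 37.1 with LPS, and Ifng was under the floor on both arrays.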

How the data were processed

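Each array's deposited values are linear signal intensities of its probe sets, computed by the authors with MAS5 (named in the submitters' processing notes). No version, scaling target or detection call of MAS5 is stated in these sources. Arrays were grouped by their titles in the labels. Probe sets were named from the platform annotation, and gene identifiers were updated through RefSeq (GRCm38.p6), which changed 0 symbols. Control probe sets (64 of 45101) were left out. Signals under an array's floor (its 50th percentile) were set to the floor before the log2 ratio was taken, and a fold against a floored signal is a lower bound, with no direction where the other signal lies under that floor. Each gene was read from its brightest probe set by mean log2 signal. Counts are by size, at least 2-fold, since 1 array per group allows no test. Among 4494 genes with several probe sets above the floor on both arrays, their log2 ratios had a median SD of 0.28, a technical gauge only.

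Genes were named by a rule: the inducible genes, Psmb5, Psmb6 and Psmb7, every member past 2-fold, the highest and lowest of each role group, members whose probe sets differ in sign, and the 2 highest and 2 lowest genes of each pathway list. A few further genes, Irf9 among them, were named after their values were seen. The members and lists were chosen with earlier results of these data known. Alternatives were a lower and a higher floor (percentiles 35 and 65), a pseudocount of 16, quantile normalization, median centring, loess (span 0.4), scaling to 18 hybridization or 24 poly-A control probe sets, the median over the probe sets of a gene, probe sets with a plain suffix, genes above the floor on both arrays, and thresholds of 1.5-fold and 3-fold. The steps were tested on simulated data. The simulated LPS array was made from the control array with no shift between them, so unequal floors and scaling were not tested. Python 3.11.15, numpy 2.4.6, pandas 2.3.3 and statsmodels 0.14.6 were used.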

Additional observations from a re-analysis of the deposited data

How the results depend on the processing

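With 1 array per group, no setting adds a measure of replicate error, and probe sets near the floor give bounds or no direction. No paired analysis was possible because each group has 1 array and no test was run. The median of the standard members was 0.65 after median centring and 0.52 when scaled to the poly-A controls, and that of the inducible genes 2.08 and 1.95. Both medians moved by less than the probe-set gauge of 0.28 under the other settings. Standard members at least 2-fold higher numbered 7 after median centring, 6 with the poly-A controls and 5 with the hybridization controls, and 7 and 1 at thresholds of 1.5-fold and 3-fold. They numbered 2 with the median over probe sets, where Psme3 was at 0.88, and 2 with plain probe sets, of which Psmd10 has none. Those at least 2-fold lower numbered 2 with the floor at the 35th percentile, where Psma8 is counted, and 2 at 1.5-fold, but 0 after quantile normalization, median centring, loess, scaling to the poly-A controls, with the median over probe sets and at 3-fold. Inducible genes at least 2-fold higher numbered 2 at 3-fold. Of 511 values of single members under the alternatives, 383 stayed within 0.28 of the main value, 128 moved further, and 0 members past 2-fold changed sign. Psmb8 has no plain probe set, so its difference from Psmb5 was not computed there.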

Other observations

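RefSeq gene order was used to read the genes next to some members, a set chosen after the values were seen. The protein-coding gene that follows Psma6 in that order is Nfkbia, which encodes the NF-kB inhibitor I kappa B alpha. Nfkbia had signals of 3238 and 10427, 3.22-fold higher on the LPS array by its brightest probe set, and the log2 ratios of its 5 probe sets lay between 1.69 and 3.37. The gene on the other side of Psma6, Prorp, had signals of 15.9, under the floor, and 37.8. Psmb9, Tap1, Psmb8 and Tap2 lie in this order, and all 4 were higher by 2-fold or more with LPS, Tap2 with signals of 419 and 1858. The next gene, H2-Ob, was near the floor, with 39.1 and 19.2. Of the genes around Psmb10, Slc12a4 was 4.19-fold higher (152 and 637), Lcat had 22.5, under the floor, and 60.8, Ctrl was under the floor on both arrays and Pskh1 was at -0.13. Psmg2, 2.14-fold lower, has as its following neighbour the phosphatase gene Ptpn2, which was 2.20-fold higher, with signals of 712 and 1565. The other genes read around Psmg2 were Seh1l at 0.58, Spire1 at 0.12 and Cep76 at -0.45. The genes on either side of Psme1 with a measured probe set, Emc9 and Dcaf11, had log2 ratios of -0.61 and -0.90. Rnf31 and Irf9, which follow Psme2 in that order, were at 2.44 and 0.16. Near Psma3 and Psma5, Frmd6 (-2.46) and Sort1 (-1.72) were lower and Arid4a was at -0.17. Near Psmd10, Atg4a was at 0.16. Near Psmd11, Zfp207 was at 0.44, with other probe sets down to -0.73, while Myo1d was at 0.47 and 5730455P16Rik at -0.80. Cdk5r1, also near Psmd11, had 17.6, under the floor, and 29.3. Near Psme3, Becn1 was at 0.08 and Cntd1 at 0.27, both with probe sets of either sign. Ppp2r3c near Psma6 was at -0.21. H2-DMb2 near Psmb9 was at -0.50, with another probe set at 1.26. Atxn7l2 near Psma5 had 39.9 and, under the floor, 22.9. Whether the position of these genes bears on their signals was not tested.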
